A study of Mus musculus with 9 samples.

Results

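The mitochondrial carriers are a family of small membrane proteins, most of them in the inner mitochondrial membrane, that exchange metabolites, nucleotides and cofactors between the cytosol and the matrix. The genes described here are those with a symbol of the form Slc25a followed by a number, together with the uncoupling protein genes Ucp1, Ucp2 and Ucp3. Slc25a20, the carnitine carrier, was left out. Of 47 such genes in the table, 42 had a mean of at least 1 TPM (a transcript level corrected for gene length and scaled to the library total) over the 9 libraries and make up the set, out of 13655 genes at that level and 18738 in all. Slc25a2 lay just inside this limit with a mean of 1.04 TPM and Slc25a43 just outside it with 0.882 TPM. The others below it were Ucp1, the heat-producing protein of brown fat (0.196 TPM), the testis ADP/ATP carrier Slc25a31 (0.332 TPM), the 2-oxodicarboxylate carrier Slc25a21 (0.119 TPM) and Slc25a41 (0.0144 TPM).

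Each carrier is built from a repeated unit and opens alternately to either side of the membrane. In heart muscle the ADP/ATP and phosphate carriers feed and empty the ATP synthase. The aspartate-glutamate and oxoglutarate carriers bring reducing power from the cytosol as parts of the malate-aspartate shuttle, and the uncoupling proteins Ucp2 and Ucp3 are tied to fatty acid use and are known targets of the PPAR nuclear receptors.

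Heart muscle cells were taken at P0, the day of birth, from WT pups of the C57BL/6J strain. Mothers had been put at random on a high-fat diet (HFD), on sHFD, the slight high-fat diet, or on ND, the normal diet, from fertilization until delivery. Each diet had 3 RNA-seq libraries, no transgene or deletion is named in the labels, and the pups' sex, litter and any pooling are not stated in the sources used here. The series ties the diets to a question about cardiomyocyte proliferation; here they were compared for the carriers, with limma on log2(TPM + 1) across all genes and a Benjamini-Hochberg adjusted p of 0.05 as the threshold. Library values are given in the order of replicates 1 to 3.

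The libraries held heart muscle RNA with RNA of other cells. The 12 cardiomyocyte markers summed to 32167 to 41891 TPM in HFD, 44485 to 58743 TPM in sHFD and 27504 to 45316 TPM in ND. None of them was at 0, and the HFD and sHFD sums did not overlap. The mean of their log2 levels did overlap, at 10.431 to 10.651 in HFD and 10.634 to 10.899 in sHFD libraries. Of the 12, 3 fell and 1 rose in HFD vs sHFD (33.3%, against 34.2% of all genes). In HFD vs ND, 0 of the 12 fell and 1 rose (8.33%, against 10.9% of all genes). Their part in the differences of the carriers was not tested. Of 10 endothelium markers 0 passed in HFD vs ND and 1 fell in HFD vs sHFD, and of 9 fibroblast markers 0 passed in either. ND replicate 1 lay nearer to the HFD libraries than the other ND libraries did, with a mean correlation of log2 levels of 0.980 with HFD and of 0.962 with its own diet. It was nearer to the HFD mean than to the sHFD mean in 30 of the 42 carriers, against 7 for ND replicate 2 and 11 for ND replicate 3. Immediate-early and heat-shock transcripts, 16 genes that rise within minutes of cell stress, summed to 8448 to 13276 TPM in HFD libraries and to 2568 to 2816 TPM in sHFD libraries, and 16 of 16 rose in HFD vs sHFD. In ND libraries they summed to 11833, 2622 and 6172 TPM in replicates 1 to 3, and their part in the results below was not tested.

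Carrier transcripts made up 0.586% to 0.65% of the TPM total in HFD, 0.74% to 0.768% in sHFD and 0.525% to 0.749% in ND libraries. Most of this came from 3 genes: Slc25a4, the heart and muscle ADP/ATP carrier, Slc25a3, the phosphate carrier, and Slc25a5, the ADP/ATP carrier of proliferating cells. Together they held 77.0% to 82.25% of the family's TPM in HFD, 75.1% to 78.8% in sHFD and 72.1% to 76.9% in ND libraries. Slc25a4, Slc25a3, Slc25a5 and Ucp2 followed each other in that order of level in 9 of 9 libraries. Below them the order was less fixed: among the 41 neighbouring pairs in the order of the means, 37 had ranges over the 9 libraries that overlapped. Slc25a11, the oxoglutarate carrier, and Slc25a39, which imports glutathione, were in the order of their means in 5 of 9 libraries. The SD of the log2 level within a diet had a median over the 42 carriers of 0.18 in HFD, 0.157 in sHFD and 0.289 in ND, and it was largest in ND for 24 of them.

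**Figure D1:**
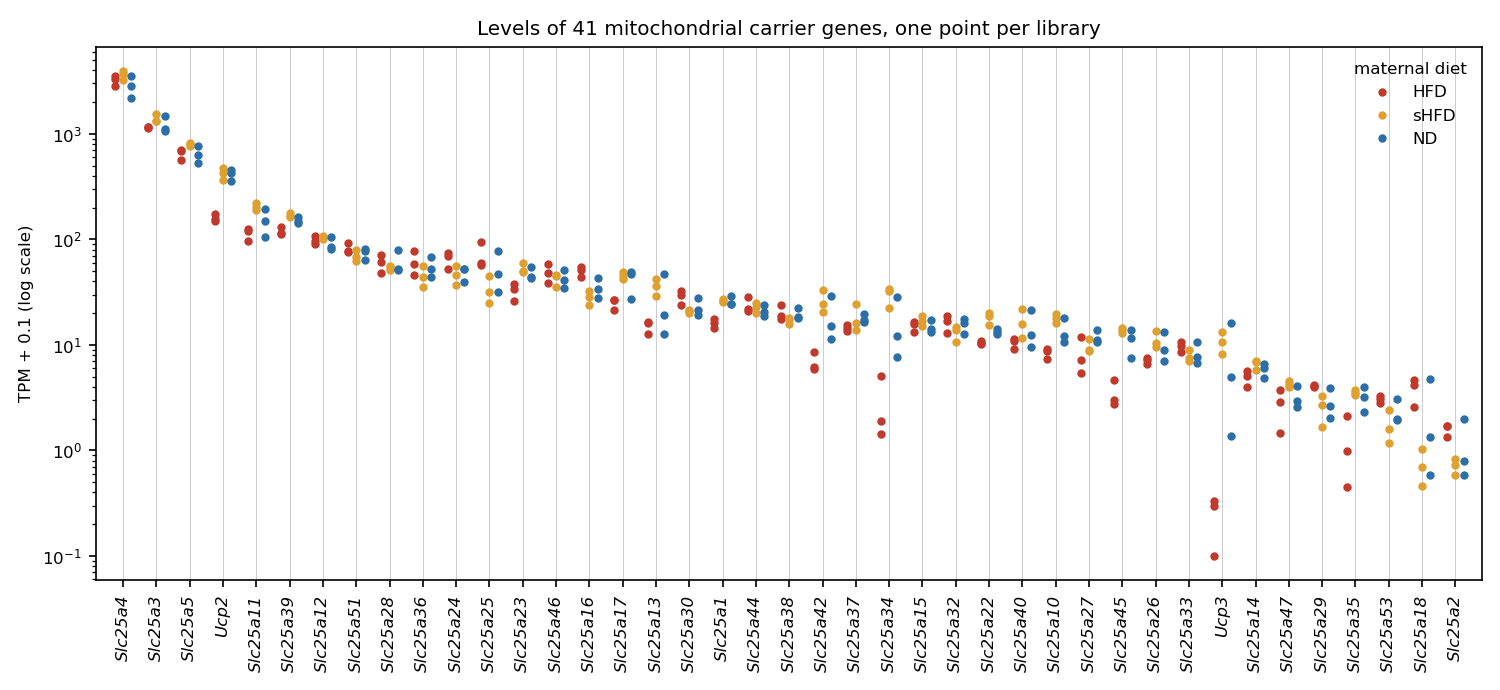
Level of each of 41 carrier genes (horizontal axis, ordered by the mean over all libraries) in TPM plus 0.1 on a log scale (vertical axis), with 1 point for each library coloured by maternal diet. Levels run from a mean of 3226 TPM for Slc25a4 to 1.04 TPM for Slc25a2, and the HFD points of Ucp2, Ucp3, Slc25a34 and Slc25a45 lie below those of both other diets.

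In the HFD libraries, the uncoupling proteins Ucp2 and Ucp3, the citrate carrier Slc25a1, the coenzyme A carrier Slc25a42 and 4 further carriers were lower than in ND libraries, and the abundant ADP/ATP and phosphate carriers did not pass the test. Of 42 carriers 8 fell and 0 rose, which is 19% of the set, where 10.9% of all 13655 genes passed in either direction (9.59% of all genes lower and 1.28% higher). The 4 included Slc25a34, Slc25a35 and Slc25a45. The libraries of HFD and ND did not overlap in 17 carriers (40.5%, against 27.9% of all genes). The median log2 difference of the carriers was -0.15, against -0.14 for all genes tested. With each library scaled to a common median ratio, which brings the median of all genes from -0.14 to 0.01, 6 carriers fell and 2 rose, and under quantile normalization 5 fell and 1 rose. Over all genes these scalings gave 668 higher and 996 lower, and 427 higher and 637 lower, in place of 175 higher and 1309 lower. Leaving out single libraries moved the count of 8 to 2 without HFD replicate 1, 1 without HFD replicate 2, 17 (13 lower and 4 higher) without ND replicate 1, 5 without ND replicate 2 and 1 without ND replicate 3. Over all genes, the share that passed was then 0.93%, 0.234%, 28.1%, 4.57% and 0.286% in the same order of libraries left out. Without ND replicate 1 the 9 carriers added were Slc25a10, Slc25a11, Slc25a13, Slc25a17 and Slc25a23, all lower in HFD, and Slc25a2, Slc25a16, Slc25a18 and Slc25a25, all higher. Without HFD replicate 3, Slc25a23 and Slc25a27 passed as lower in HFD than in ND.

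Against sHFD libraries, HFD libraries showed the same 8 genes lower and a further 10 past the threshold. Of 42 carriers 15 fell and 3 rose (42.9% of the set, against 34.2% of all genes, 23.9% lower and 10.3% higher). The carriers' median was -0.28 and that of all genes -0.16. Libraries did not overlap in 28 carriers (66.7%, against 51.3% of all genes). With median-ratio scaling 14 fell and 10 rose, and under quantile normalization 14 fell and 10 rose as well. Over all genes the split was 1406 higher and 3259 lower, against 2597 and 2622 with median-ratio scaling and 2401 and 2407 under quantile normalization. HFD vs ND and HFD vs sHFD share the HFD libraries, so their results are not independent of each other. Between sHFD and ND none of the 42 carriers passed limma's test over all genes, where 0.00732% of all genes passed. At an unadjusted p under 0.05 there were 3 carriers (7.14%, against 7.36% of all genes). In that comparison libraries did not overlap in 4 carriers (9.52%, against 9.4% of all genes). Without ND replicate 2 the carriers Slc25a13, Slc25a34 and Ucp3 passed, all higher in sHFD, and 2.64% of all genes passed.

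**Figure D2:**
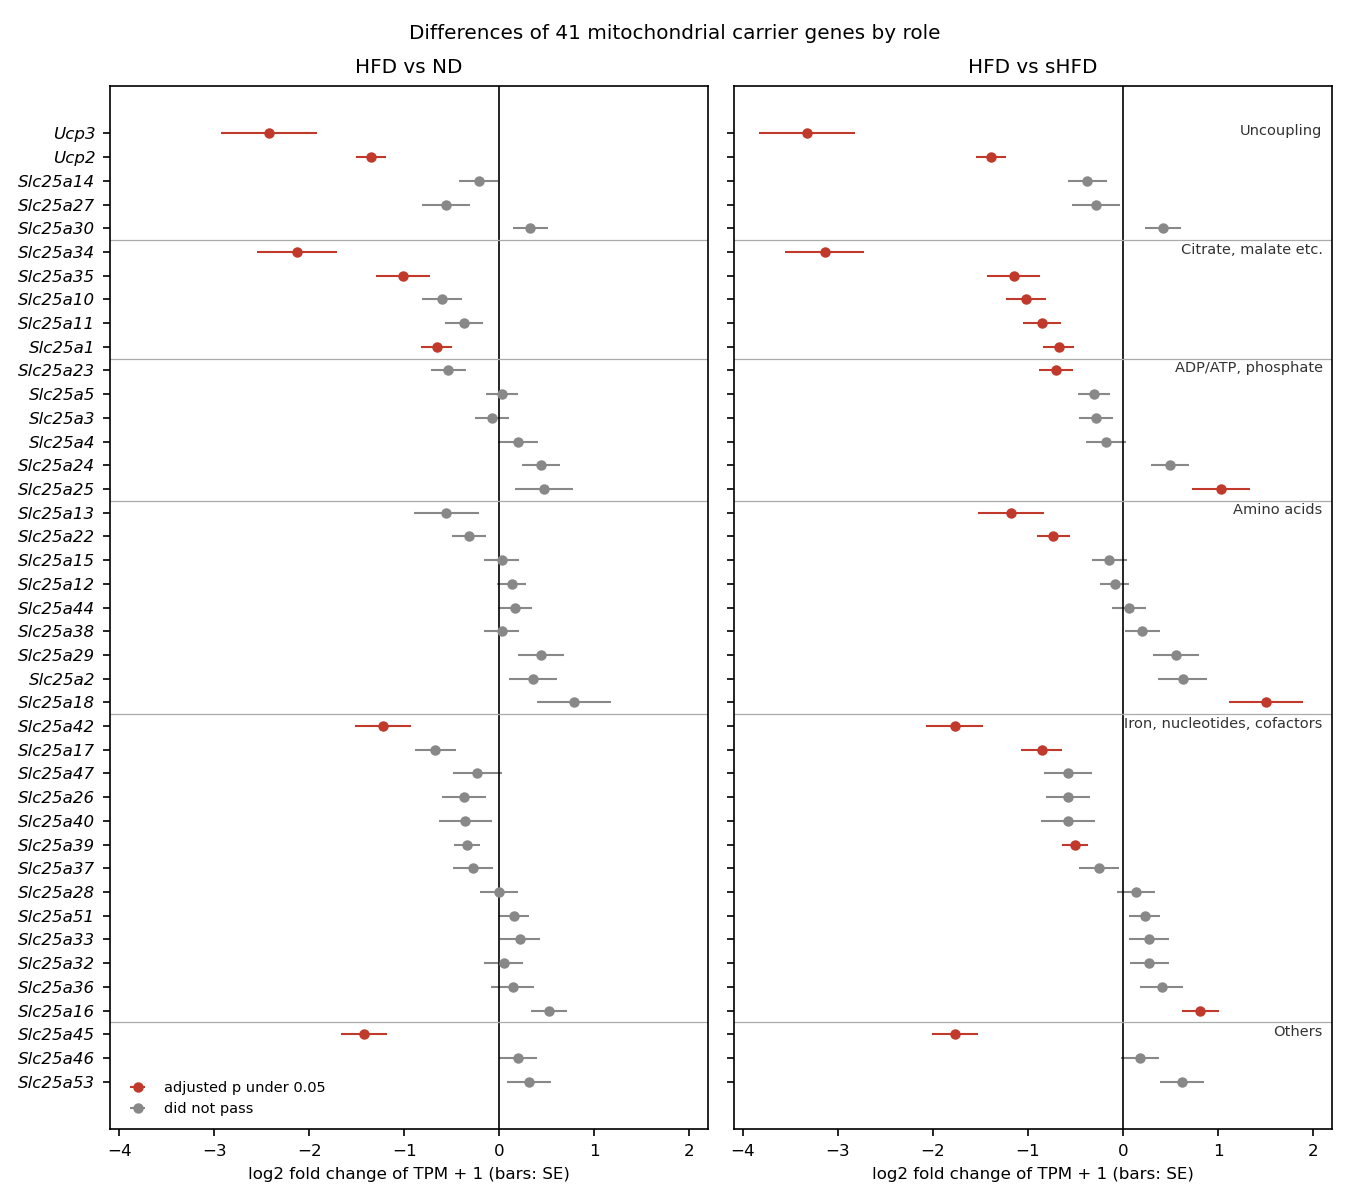
Log2 fold change on the TPM + 1 scale (horizontal axis) of each of 41 carriers (vertical axis, grouped by role) for HFD vs ND on the left and HFD vs sHFD on the right. Points are limma estimates, bars are their SE and red marks an adjusted p under 0.05: 7 of those drawn are red on the left, all lower in HFD, and 17 on the right, 14 of them lower in HFD.

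Of the uncoupling proteins and their near relatives, Ucp2 and Ucp3 fell in HFD libraries and 3 did not pass the test. With either diet as the reference, this was 40% of the 5 tested. The background share was 10.9% with ND as the reference and 34.2% with sHFD, and the latter was near that of the group. Ucp2, a widely expressed protein also abundant in leukocytes, was at 157, 149.6 and 173 TPM in the HFD libraries, at 423, 478 and 366 TPM in the sHFD libraries and at 361, 423 and 449 TPM in the ND libraries. The highest HFD library was below the lowest library of either other diet, and sHFD and ND libraries overlapped. Its mean in HFD was 0.389 times that in ND (log2 -1.35, SE 0.16, limma adjusted p = 0.00139) and 0.379 times that in sHFD (log2 -1.39, SE 0.16, adjusted p = 0.000531). It was the only carrier to pass against ND whichever of the 9 libraries was left out. The sHFD minus ND difference was 0.04 (95% interval -0.30 to 0.37).

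Leukocyte transcripts were also lower in HFD libraries. Of 17 macrophage and leukocyte markers, 16 fell in HFD vs ND and 10 fell and 1 rose in HFD vs sHFD. In sHFD vs ND none of the 17 passed limma's test, with 4 at an unadjusted p under 0.05 (23.5%, against 7.36% of all genes). Of the 17, 14 were lower in sHFD, with a median log2 difference of -0.32. Their summed level was 339 to 395 TPM in HFD, 479 to 595 TPM in sHFD and 598 to 854 TPM in ND libraries. These sums did not overlap, but those of sHFD and ND came close, at 595 and 598 TPM. The mean of the log2 levels did overlap, at 4.243 to 4.606 in sHFD and 4.474 to 5.013 in ND libraries. Taken singly, 0 of the 17 markers separated the sHFD from the ND libraries. Ucp2 differed between sHFD and ND by the 0.04 given above. None of the 17 was at 0 in any library, and their part in the difference of Ucp2 was not tested. In bulk libraries such as these, fewer cells of a type and less RNA per cell cannot be told apart.

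Ucp3, the uncoupling protein of skeletal and heart muscle, was listed at 0.23, 0 and 0.20 TPM in the HFD libraries, at 10.6, 13.1 and 8.13 TPM in the sHFD libraries and at 1.28, 16.0 and 4.88 TPM in the ND libraries. No HFD library reached the level of any other library, and ND replicate 1 was the lowest ND library. Ucp3 met the 1 TPM limit through the sHFD and ND libraries alone. On the log2(TPM + 1) scale it fell by 2.42 against ND (SE 0.51, adjusted p = 0.0148) and by 3.33 against sHFD (SE 0.51, adjusted p = 0.00132). Against ND it missed the threshold without HFD replicate 1, HFD replicate 2 or ND replicate 3. Ucp1 was at 0.09, 0.12 and 0.60 TPM in HFD, 0.08, 0.10 and 0 TPM in sHFD and 0.58, 0 and 0.19 TPM in ND libraries. The 10 brown fat markers summed to 3510 to 3933 TPM in HFD, 3661 to 5620 TPM in sHFD and 2940 to 6037 TPM in ND libraries, nearly all of it from Fabp4, a gene also active in endothelium. Of the 5 tested, Prdm16 fell in HFD vs ND (log2 -0.84, adjusted p = 0.0478), and Cidea, Prdm16 and Dio2 fell in HFD vs sHFD (log2 -0.82, -1.40 and -1.35, adjusted p = 0.0117, 0.00221 and 0.0034). Dio2 was at 0.37, 0.57 and 0.33 TPM in HFD and 2.16, 3.64 and 2.25 TPM in sHFD libraries. In ND libraries it was at 0.85, 2.58 and 1.12 TPM, and it met the 1 TPM limit through sHFD and ND libraries alone. Cidea, a lipid droplet protein, was at 12.45 to 14.8 TPM in HFD, 21.2 to 29.9 TPM in sHFD and 14.75 to 24.9 TPM in ND libraries. Adipoq, Plin1, Elovl3, Cidec and Adrb3 were at most 1.17, 0.42, 0.17, 0.39 and 0.68 TPM in any library, with Adipoq, Elovl3 and Cidec at 0 in some. The part of these markers in the values of Ucp3 and Ucp1 was not tested. Of the near relatives, Slc25a27 and Slc25a14, brain-type uncoupling proteins, and Slc25a30, a kidney-type carrier, had log2 differences of -0.56, -0.22 and 0.33 in HFD vs ND (adjusted p = 0.156, 0.501 and 0.259). In HFD vs sHFD, Slc25a30 passed as higher under median-ratio scaling and quantile normalization.

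Ucp3 and Ucp2 are neighbours on the plus strand of chromosome 7, at 100472991 to 100486432 and 100493337 to 100499629 in GRCm38, with 6904 bases and 0 protein-coding genes between them. The 250 bases before the start of transcription in the RefSeq promoter table of GRCm38.p6, where 32 of the 42 carriers had an entry, were searched on both strands for the half-site AGGTCA, which many nuclear receptors bind. It was present in 12.2% of 41 carrier promoters and in 14% of 32851 promoters of all genes. Of the 13 carriers that fell in HFD in either comparison and had an entry, 4 held it: Ucp3, Slc25a34, Slc25a45 and Slc25a39. Counted in the same way by gene, 5 of all 32 carriers with an entry held it. The shares above are by promoter, and whether the half-site is more frequent among carriers that fell was not tested. The paired form DR1 and the longer TCAAGGTCA, which both contain the half-site, were in 0 of the 41 carrier promoters and in 0.0335% and 0.387% of all. CCGGAAG, an ETS-type motif, was in 4 carrier promoters (9.76%, against 6.91% of all) and the motif of the factor NRF1 in 1, that of Slc25a3 (2.44%, against 3.74%). The promoters of the neighbours Ucp3 and Ucp2 and of 2 other carriers that fell are shown for their half-sites, which stand in capitals as AGGTCA or, on the opposite strand, TGACCT. In Ucp3 they begin 149 and 44 bases before the start, in Slc25a34 119 and in Slc25a45 50 bases before it, and Ucp2 has none in this window. These distances are from the start in the promoter table. The gene records of Ucp2, Slc25a34 and Slc25a45 begin inside the windows shown, at 100493337, 141623891 and 5877801, so distances depend on the start used.
Ucp3 promoter, chr7:100472741-100472990, plus strand: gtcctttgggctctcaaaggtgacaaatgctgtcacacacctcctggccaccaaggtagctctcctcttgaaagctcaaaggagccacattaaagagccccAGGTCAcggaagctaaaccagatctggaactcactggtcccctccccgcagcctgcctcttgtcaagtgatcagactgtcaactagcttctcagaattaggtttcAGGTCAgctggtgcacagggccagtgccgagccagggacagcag
Ucp2 promoter, chr7:100493108-100493357, plus strand: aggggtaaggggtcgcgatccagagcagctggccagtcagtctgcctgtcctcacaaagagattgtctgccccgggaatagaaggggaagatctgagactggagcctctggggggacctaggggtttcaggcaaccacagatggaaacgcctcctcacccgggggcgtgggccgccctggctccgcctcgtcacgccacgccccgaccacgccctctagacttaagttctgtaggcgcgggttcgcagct
Slc25a34 promoter, chr4:141623835-141624084, minus strand: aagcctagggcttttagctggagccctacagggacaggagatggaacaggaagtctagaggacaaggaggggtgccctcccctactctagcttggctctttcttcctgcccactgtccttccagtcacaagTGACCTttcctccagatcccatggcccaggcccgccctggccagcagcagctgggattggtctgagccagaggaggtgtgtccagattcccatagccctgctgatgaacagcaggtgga
Slc25a45 promoter, chr19:5877572-5877821, plus strand: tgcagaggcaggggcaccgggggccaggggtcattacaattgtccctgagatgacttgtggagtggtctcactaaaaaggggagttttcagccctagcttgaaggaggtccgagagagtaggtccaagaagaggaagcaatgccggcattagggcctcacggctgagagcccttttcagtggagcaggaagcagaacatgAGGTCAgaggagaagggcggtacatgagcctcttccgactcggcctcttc

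Among carriers of citrate, malate, oxoglutarate and related acids, 3 of 5 fell and 0 rose in HFD vs ND, and 5 of 5 fell in HFD vs sHFD, where 9.59% and 23.9% of all genes were lower. Slc25a34, an orphan carrier related to the yeast oxaloacetate carrier, had the largest fall of the group, with 1.33, 1.81 and 5.00 TPM in HFD, 32.6, 33.8 and 22.0 TPM in sHFD and 7.59, 28.6 and 11.96 TPM in ND libraries. All HFD libraries were below all others, and ND replicate 1 was the lowest ND library. Its log2 difference was -2.13 in HFD vs ND (SE 0.42, adjusted p = 0.0129) and -3.14 in HFD vs sHFD (SE 0.42, adjusted p = 0.000955). It missed the threshold against ND without HFD replicate 1, HFD replicate 2 or ND replicate 3. Slc25a35, its close relative, was at 0.89, 0.35 and 2.04 TPM in HFD, 3.23, 3.37 and 3.60 TPM in sHFD and 2.21, 3.87 and 3.09 TPM in ND libraries (log2 -1.01, SE 0.28, adjusted p = 0.0374 in HFD vs ND, and log2 -1.15, SE 0.28, adjusted p = 0.00861 in HFD vs sHFD). HFD libraries were below all others. The call against ND held without HFD replicate 3 or ND replicate 1, was lost without any of the other 7 libraries (adjusted p = 0.172 at most), and was lost with no filter on low values (adjusted p = 0.0677), with only the 2 diets in the fit (adjusted p = 0.0877) and under quantile normalization (adjusted p = 0.0823). Slc25a35 overlaps Rangrf by 33 bases, and the sources used here do not say whether counting used strand.

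Slc25a1, the citrate carrier that supplies acetyl units for lipid synthesis, was at 17.65, 14.3 and 16.1 TPM in HFD libraries, 25.4, 26.0 and 26.8 TPM in sHFD libraries and 24.5, 24.1 and 29.0 TPM in ND libraries. The HFD values were below all others, and those of sHFD and ND overlapped. It fell by 0.66 on the log2 scale against ND (SE 0.16, adjusted p = 0.0265), a call lost without HFD replicate 1, HFD replicate 2 or ND replicate 3 and under median-ratio scaling, under quantile normalization and with only the 2 diets in the fit (adjusted p = 0.0729), and by 0.68 against sHFD (SE 0.16, adjusted p = 0.00855), a call lost under quantile normalization (adjusted p = 0.0508). Slc25a11, which exchanges malate for oxoglutarate, was at 125, 119 and 95.6 TPM in HFD, 219.5, 202.5 and 191 TPM in sHFD and 105, 196 and 150.45 TPM in ND libraries. HFD libraries were below sHFD libraries without overlap (log2 -0.85, SE 0.20, adjusted p = 0.00787) and overlapped with ND libraries (log2 -0.37, SE 0.20, adjusted p = 0.238). Against ND, Slc25a11 passed without ND replicate 1 (adjusted p = 0.0227). Slc25a11 overlaps Rnf167 on the opposite strand by 302 bases. Slc25a10, the dicarboxylate carrier, was at 9.05, 7.25 and 8.61 TPM in HFD and 17.8, 19.7 and 16.0 TPM in sHFD libraries (log2 -1.02, SE 0.21, adjusted p = 0.00413). In ND libraries it was at 10.55, 17.7 and 12.05 TPM, above all HFD libraries, but did not pass (log2 -0.61, adjusted p = 0.0767), except without ND replicate 1 (adjusted p = 0.0194).

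**Figure D3:**
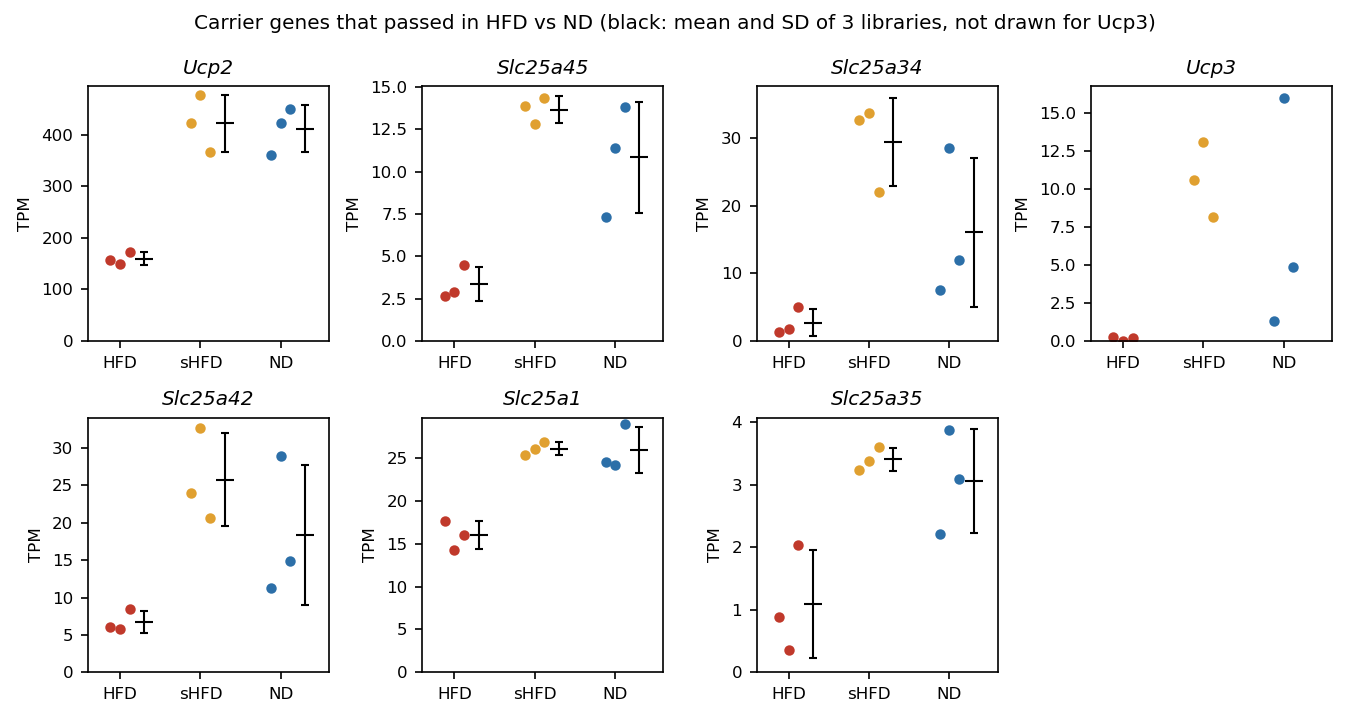
TPM (vertical axes, from 0) of 7 carriers that passed in HFD vs ND, by maternal diet, with 1 point for each library in the order of replicates 1 to 3 and, except for Ucp3, the mean and SD of 3 libraries in black. In each panel the 3 HFD points lie below every sHFD and ND point, and ND replicate 1 is the lowest ND library in all of them but Slc25a1.

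Carriers of iron, nucleotides and cofactors were split, with 2 of 14 lower in HFD vs ND and 4 lower and 1 higher in HFD vs sHFD. These shares, 14.3% and 35.7%, were near those of all genes, 10.9% and 34.2%. Slc25a42, which brings coenzyme A into the matrix, was at 6.05, 5.83 and 8.47 TPM in HFD, 24.0, 32.7 and 20.6 TPM in sHFD and 11.2, 28.9 and 14.9 TPM in ND libraries. HFD libraries were below all others (log2 -1.22, SE 0.30, adjusted p = 0.0241 against ND and log2 -1.77, SE 0.30, adjusted p = 0.0018 against sHFD). Against ND, Slc25a42 missed the threshold without HFD replicate 1, HFD replicate 2, ND replicate 2 or ND replicate 3, and also with no filter on low values or with only the 2 diets in the fit (adjusted p = 0.0592 in both).

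Slc25a17, the peroxisomal carrier of coenzyme A and other nucleotides, and Slc25a39 fell in HFD vs sHFD (log2 -0.86 and -0.50, adjusted p = 0.00969 and 0.0147). Slc25a39 missed the threshold under median-ratio scaling (adjusted p = 0.11) and without HFD replicate 2 or sHFD replicate 1. Against ND both were lower without overlap and did not pass (log2 -0.67 and -0.34, adjusted p = 0.0593 and 0.116), but Slc25a17 passed against ND without ND replicate 1 (log2 -0.94, adjusted p = 0.00221). Slc25a16, a carrier linked to matrix coenzyme A, was at 43.65, 51.45 and 54.8 TPM in HFD, 23.6, 32.3 and 28.3 TPM in sHFD and 42.7, 33.8 and 27.9 TPM in ND libraries. It rose against sHFD (log2 0.81, SE 0.19, adjusted p = 0.00715) and was above all ND libraries without passing (log2 0.52, SE 0.19, adjusted p = 0.089), but it passed against ND under median-ratio scaling, under quantile normalization and without ND replicate 1. The mitoferrins, which carry iron for haem and iron-sulphur clusters, did not pass: Slc25a28 had log2 differences of -0.004 (95% interval -0.43 to 0.42) against ND and 0.14 against sHFD, and Slc25a37, the form of red cell precursors, -0.28 and -0.26. Against ND, HFD libraries were lower in Slc25a37 without overlap (adjusted p = 0.396). Red cell markers, 12 genes, summed to 4256 to 7722 TPM in HFD, 9315 to 12975 TPM in sHFD and 8053 to 18768 TPM in ND libraries. Of the 9 tested, 1 fell in HFD vs ND (11.1%, against 9.59% of all genes) and 6 in HFD vs sHFD (66.7%, against 23.9%). The part of these markers in the values of Slc25a37 was not tested.

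The ADP/ATP and phosphate carriers that serve ATP synthase did not pass in any comparison. Slc25a4 was at 3513, 3288 and 2829 TPM in HFD libraries, 3916, 3240.5 and 3723 TPM in sHFD libraries and 2200.45, 3521 and 2808 TPM in ND libraries, and every pair of diets overlapped. Its log2 difference was 0.20 in HFD vs ND (95% interval -0.27 to 0.66, adjusted p = 0.573) and -0.18 in HFD vs sHFD (95% interval -0.64 to 0.28, adjusted p = 0.539). Slc25a3 was at 1151, 1156 and 1123 TPM in HFD, 1322, 1551 and 1314 TPM in sHFD and 1058, 1475 and 1121 TPM in ND libraries (log2 -0.08 against ND, 95% interval -0.45 to 0.30, and -0.28 against sHFD). HFD lay below sHFD without overlap, and the adjusted p of 0.224 missed the threshold. Slc25a5 was at 685, 699 and 560.1 TPM in HFD, 806, 768 and 819 TPM in sHFD and 524, 758 and 636 TPM in ND libraries. It had a log2 difference of 0.03 against ND (95% interval -0.34 to 0.40) and of -0.30 against sHFD (adjusted p = 0.186), and its reads may be shared with the pseudogene Slc25a5-ps, so its level is uncertain. The signs of Slc25a3 and Slc25a5 against ND turned with scaling: median-ratio scaling gave 0.08 for Slc25a3 and quantile normalization -0.07 for Slc25a5.

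The calcium-regulated ATP-magnesium/phosphate carriers, which set the size of the matrix nucleotide pool, went in different directions. Slc25a23 fell in HFD vs sHFD (log2 -0.70, SE 0.18, adjusted p = 0.011), a call lost without HFD replicate 2, and Slc25a25 rose (log2 1.03, SE 0.30, adjusted p = 0.0209), with 56.7, 59.2 and 94.4 TPM in HFD against 25.1, 44.65 and 31.8 TPM in sHFD libraries. In ND libraries Slc25a25 was at 78.2, 31.7 and 46.8 TPM, and the log2 difference of HFD from ND was 0.47 (SE 0.30, adjusted p = 0.314). ND replicate 1, the ND library with the highest sum of immediate-early and heat-shock transcripts, was also the highest ND library for Slc25a25. This was not particular to Slc25a25: the same library was the highest for Slc25a16, Slc25a28 and Slc25a18, and the lowest for Slc25a4 and Ucp3. A link between these transcripts and the level of Slc25a25 was not tested. Slc25a24 had log2 differences of 0.44 from ND and 0.50 from sHFD and did not pass (adjusted p = 0.157 and 0.0675). With median-ratio scaling it passed against ND (adjusted p = 0.0337) and against sHFD (adjusted p = 0.00721), and against sHFD also under quantile normalization, with only the 2 diets in the fit and without HFD replicate 1 or sHFD replicate 2. The rise of Slc25a25 against sHFD missed the threshold without HFD replicate 3, sHFD replicate 1 or sHFD replicate 3. Slc25a25 overlaps Naif1 on the opposite strand by 1014 bases.

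Of 9 amino acid carriers, 0 passed in HFD vs ND, while 2 fell and 1 rose in HFD vs sHFD (33.3%, against 34.2% of all genes). Slc25a13, the liver-type aspartate-glutamate carrier citrin, was at 12.65, 16.1 and 16.3 TPM in HFD and 36.2, 41.6 and 28.7 TPM in sHFD libraries (log2 -1.18, SE 0.35, adjusted p = 0.0204), a call lost without HFD replicate 1, sHFD replicate 1 or sHFD replicate 2. Its ND libraries ranged widely, at 12.5, 46.6 and 19.0 TPM in replicates 1 to 3, and overlapped with both other diets. Its heart-type partner Slc25a12, aralar, was at 90.55, 95.7 and 108.55 TPM in HFD, 99.7, 106 and 107 TPM in sHFD and 83.6, 105 and 80.9 TPM in ND libraries. It did not pass in either comparison of HFD (log2 0.13 against ND, 95% interval -0.19 to 0.46, and -0.09 against sHFD, 95% interval -0.41 to 0.24). Slc25a22, a glutamate carrier, was at 10.3, 10.1 and 10.8 TPM in HFD, 18.6, 20.0 and 15.5 TPM in sHFD and 13.05, 14.05 and 12.6 TPM in ND libraries, with no overlap between any of the diets. It fell against sHFD (log2 -0.73, SE 0.17, adjusted p = 0.00776), and did not pass against ND (adjusted p = 0.237). Slc25a18, the other glutamate carrier, was at 4.50, 2.46 and 4.06 TPM in HFD and 0.92, 0.60 and 0.36 TPM in sHFD libraries (log2 1.51, SE 0.39, adjusted p = 0.0113). In ND libraries it was at 4.65, 0.49 and 1.24 TPM, with ND replicate 1 above all HFD libraries and the other ND libraries below them, and it passed against ND without that library (log2 1.33, adjusted p = 0.00499). Slc25a18 and the ornithine carrier Slc25a2 were below 1 TPM on average in sHFD and met the limit through the other diets.

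Slc25a45, a carrier from the same branch of the family as the carnitine carrier, was at 2.68, 2.89 and 4.50 TPM in HFD, 13.9, 12.8 and 14.35 TPM in sHFD and 7.33, 11.4 and 13.8 TPM in ND libraries. HFD libraries were below all others, and its mean was 0.309 times that of ND (log2 -1.43, SE 0.24, adjusted p = 0.00938) and 0.246 times that of sHFD (log2 -1.77, SE 0.24, adjusted p = 0.00102). The call against ND was lost without HFD replicate 2 (adjusted p = 0.0643) and without ND replicate 3 (adjusted p = 0.063). Slc25a46, an outer-membrane member involved in mitochondrial shape, had log2 differences of 0.20 against ND and 0.18 against sHFD (adjusted p = 0.536 and 0.509).

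Ratios between related carriers were compared within libraries with an exact two-sided permutation test, which cannot go below 0.1 with 3 against 3 libraries. Slc25a4 was 5.13, 4.70 and 5.05 times Slc25a5 in HFD libraries, 4.86, 4.22 and 4.55 times in sHFD libraries and 4.20, 4.64 and 4.41 times in ND libraries. HFD lay above ND without overlap and overlapped with sHFD, and the difference of the log2 ratio from ND was 0.17 (exact p = 0.1, adjusted p = 0.4 over 12 tests). Slc25a12 was 7.16, 5.95 and 6.65 times Slc25a13 in HFD libraries, 2.76, 2.55 and 3.715 times in sHFD libraries and 6.70, 2.26 and 4.25 times in ND libraries. The difference of its log2 ratio between HFD and sHFD was 1.09 (exact p = 0.1, adjusted p = 0.4), and ND replicate 1 lay among the HFD values. Mean log2 ratios of Slc25a37 to Slc25a28 were -1.97 in HFD, -1.58 in sHFD and -1.70 in ND, with overlap between the diets.

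**Figure D4:**
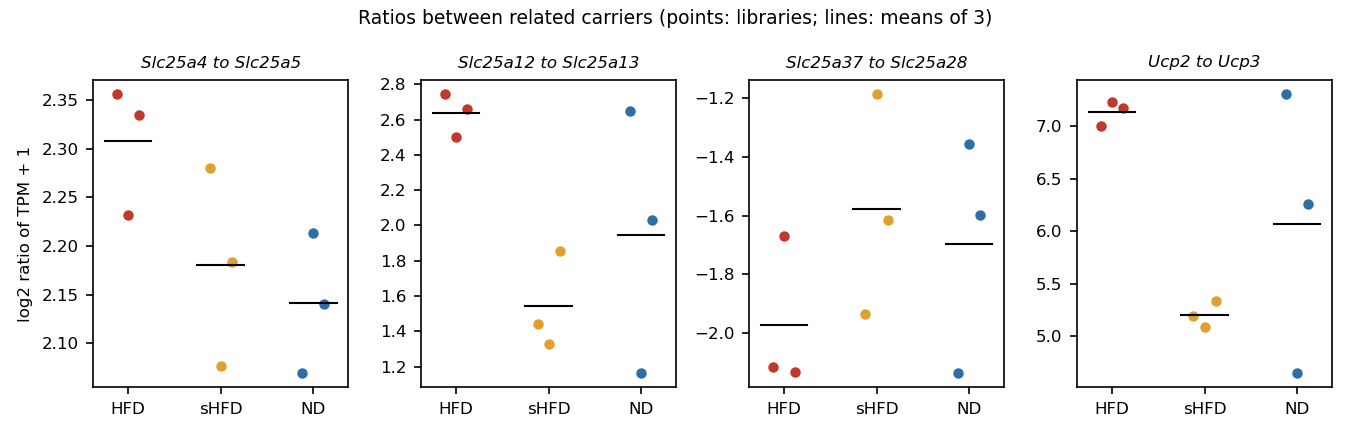
Log2 ratio of TPM + 1 between members of 4 pairs of carriers (vertical axes, each with its own range) by maternal diet, with 1 point for each library and lines at the means of 3. HFD points lie above sHFD points without overlap for Slc25a12 to Slc25a13 and for Ucp2 to Ucp3, and in both pairs the ND points run from below all sHFD points to the range of the HFD points or above it.

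The machinery around the carriers was described by lists of known members, whose counts are to be read against all genes, of which 10.9% passed in HFD vs ND (29.8% at an unadjusted p under 0.05) and 34.2% in HFD vs sHFD. Of 14 genes of the import route that threads carriers through the outer membrane and into the inner one, 0 passed in HFD vs ND, against 3 at an unadjusted p under 0.05, and 2 rose and 5 fell in HFD vs sHFD (50.0% of the list). Timm29, a subunit of the TIM22 insertion complex, rose against sHFD (log2 0.82, SE 0.20, adjusted p = 0.00807), as did the outer-membrane receptor Tomm20 (log2 0.45, adjusted p = 0.0365), and the small chaperone Timm10b fell (log2 -1.01, adjusted p = 0.00969). Of 25 other mitochondrial transporters 3 fell and 0 rose in HFD vs ND, and 7 fell and 0 rose in HFD vs sHFD, which is 12% and 28% of the list, near the share of all genes and below it. Those that fell against ND were Mcu, the pore of the calcium uniporter (11.6 TPM in HFD and 22.8 TPM in ND, log2 -0.86, SE 0.24, adjusted p = 0.041), the serine transporter relative Sfxn3 (log2 -0.58, adjusted p = 0.0318) and Ccdc51, a subunit of the mitochondrial potassium channel (log2 -1.08, adjusted p = 0.0297). ATP synthase genes, the partners of the ADP/ATP and phosphate carriers, had 0 of 16 past the threshold against ND and 0 against sHFD. At an unadjusted p under 0.05 there were 0 and 1 (0% and 6.25%, against 29.8% and 45.6% of all genes). Their median log2 difference was -0.01 against ND and -0.27 against sHFD, where that of all genes was -0.14 and -0.16.

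Of 17 regulators of mitochondrial genes, 0 passed in HFD vs ND, against 5 at an unadjusted p under 0.05, and 6 fell and 1 rose in HFD vs sHFD. The 5 are 29.4% of the list, against 29.8% of all genes, and the 7 are 41.2%, against 34.2%. Ppard, which encodes a PPAR nuclear receptor, was at 17.4 TPM in HFD, 27.6 TPM in sHFD and 25.2 TPM in ND on average, with log2 differences of -0.51 from ND (SE 0.18, adjusted p = 0.086) and -0.62 from sHFD (SE 0.18, adjusted p = 0.0217). Of the other PPAR genes, named after their values were seen, Ppara averaged 4.51 TPM in HFD, 9.53 TPM in sHFD and 4.70 TPM in ND, and fell against sHFD (log2 -0.94, SE 0.28, adjusted p = 0.0217) and did not pass against ND (log2 0.05, adjusted p = 0.917). Pparg averaged 31.9, 37.8 and 33.6 TPM in HFD, sHFD and ND and did not pass. The orphan receptor Esrrb and the retinoid receptor Rxrg also fell against sHFD (log2 -1.41 and -0.91, adjusted p = 0.00331 and 0.0103). Among 13 enzymes of the malate-aspartate, citrate and glycerol phosphate routes, Gpd1, the cytosolic glycerol phosphate dehydrogenase, fell against ND (3.90 TPM in HFD and 7.31 TPM in ND, log2 -0.74, SE 0.21, adjusted p = 0.0385), and 2 fell against sHFD, which is 7.69% and 15.4% of the list and below the share of all genes in both. None of the 14 import, 25 transporter, 16 ATP synthase, 17 regulator or 13 enzyme genes passed in sHFD vs ND. In the same order, 3, 3, 1, 4 and 5 of them had an unadjusted p under 0.05. These are 21.4%, 12%, 6.25%, 23.5% and 38.5% of the lists, against 7.36% of all genes.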

How the data were processed

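The authors deposited 1 table of TPM for 9 libraries of newborn cardiomyocytes, 3 per maternal diet, per its file headers. The submitters' processing notes name RSEM 1.3.1 and GRCm38 without a role. Which aligner, annotation and strand setting were used is not given in the sources used here. Libraries were made from mRNA isolated from total RNA, per the labels' protocols. Columns named CON, MID and HIGH were read as ND, sHFD and HFD with their replicate numbers. Read depth cannot be had from TPM and is unknown for every library.

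Values were taken as log2(TPM + 1), which understates changes of low genes, for the 13655 genes that averaged 1 TPM or more. In 1 linear model the 9 libraries of the 3 diets were fitted with limma 3.58.1 (R 4.3.3), an intensity trend and 6 residual degrees of freedom. P-values are two-sided and Benjamini-Hochberg adjusted over all genes tested. The test was checked on simulated data with known changes. Positions and promoters are from RefSeq tables of GRCm38.p6, matched on gene identifiers. The labels do not state whether libraries of 1 diet are from different litters or pups. P-values therefore reflect only the spread among these samples, possibly technical. Of the carriers, 1 that is counted in the totals is not reported here. Library values are given for up to 12 carriers per comparison past the threshold, by adjusted p, for 9 fixed carriers and for Slc25a18 and Slc25a25, added after their values were seen. From each pathway list up to 3 genes were named, those of lowest p between HFD and ND. Ppara and Pparg were named outside this rule, after their values were seen, and other regulators that passed against sHFD were not named. The carriers and lists were chosen with earlier results of these data known. Alternatives were other pseudocounts, filters, scalings and variance models, fits to 2 diets, a replicate block and leaving out each library.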

Additional observations from a re-analysis of the deposited data

How the results depend on the processing

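The count of carriers past the threshold in HFD vs ND was 8 and became 5 with no filter on low values and 4 when only the 2 diets compared entered the fit, and it ran from 1 to 17 when 1 library was left out. In HFD vs sHFD it was 18 and stayed within 1.5 times of this under all alternatives run, from 15 to 21 with a library left out and up to 24 under median-ratio scaling and quantile normalization. In sHFD vs ND it was 0 and ran from 0 to 3 with a library left out. Over all genes, the count for HFD vs ND was 763 with no filter and 420 with only the 2 diets, and ran from 32 to 3842 with a library left out. For HFD vs sHFD it ran from 2696 to 5458 with a library left out. For sHFD vs ND the count of 1 gene became 0 with a pseudocount of 0.1, with no filter, at a mean of at least 5 TPM and with the replicate block, 2 with only the 2 diets, and ran from 0 to 360 with a library left out. Fits with a library left out assume that a diet with 2 libraries varies like the others.

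Some small differences changed sign. In HFD vs ND, Slc25a3 was 0.08 under median-ratio scaling and between -0.17 and 0.07 with a library left out, and Slc25a5 was -0.07 under quantile normalization and -0.11 to 0.16 with a library left out. In sHFD vs ND, Ucp2 ran from -0.06 to 0.13 with a library left out, and Slc25a12 in HFD vs sHFD was 0.08 under median-ratio scaling. With a library left out, the log2 ratio of Slc25a4 to Slc25a5 in sHFD vs ND ran from -0.01 to 0.09, and that of Slc25a37 to Slc25a28 from -0.10 to 0.29. The cause was not tested.

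With the replicate number as a block, 19 carriers passed in HFD vs sHFD, 9 in HFD vs ND and 0 in sHFD vs ND. The carrier gained against ND was Slc25a17 (adjusted p = 0.0336) and that gained against sHFD was Slc25a40 (adjusted p = 0.0496). Same-numbered libraries of 2 diets deviated together by correlations from -0.287 to 0.413, and differently numbered ones by -0.352 to 0.347. The value of 0.413, for sHFD replicate 1 with HFD replicate 1, was the highest of all pairs. As the 2 ranges overlapped widely, the numbers are not taken to pair the samples. TPM gives no depth, and the precision of low genes such as Ucp3, Slc25a35, Slc25a18 and Slc25a2 cannot be stated.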
